A study of Mus musculus with 35 samples.

Results

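The comparison set 6 medium neuroblastomas of TH-MYCN mice against 6 small ones, the first step of growth in a series of tumors collected by size. The 12 arrays were chosen by their titles, out of 24 tumor arrays in the same hybridisation set (set 1) and 35 arrays in the whole series. All mice were homozygous for TH-MYCN, a transgene in which the tyrosine hydroxylase promoter drives human MYCN in cells of the sympathetic lineage, so small and medium tumors share it. Ultrasound from weaning on day 28 followed the tumors until they reached a size class.

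Small tumors weighed 0.05, 0.1, 0.1, 0.05, 0.1 and 0.08 g (replicates 1 to 6), and their mice were killed at 31, 31, 28, 28, 28 and 42 days. Medium tumors weighed 0.39, 0.24, 0.46, 0.37, 0.37 and 0.25 g, at 35, 42, 35, 35, 37 and 39 days. Mean life span was therefore 31.3 ± 5.43 days (SD, n = 6) against 37.2 ± 2.86 days (n = 6), and age rose with size. RNA came from 10 µm frozen sections, and digoxigenin-labelled cDNA was hybridised to single-colour oligonucleotide arrays. Each title names a separate specimen, and p-values measure the spread between these specimens. The labels give no sex and no count of sections per tumor.

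Neuroblastoma arises from precursors of sympathetic neurons and chromaffin cells, which make noradrenaline and related catecholamines. N-Myc, the product of MYCN, drives ribosome production, nucleotide and amino acid supply and cell division. Fatty acid oxidation takes place in mitochondria and is most active in heart, skeletal muscle and brown fat. Brown fat burns fatty acids for heat through the uncoupling protein UCP1, and depots of it lie around the kidney, the adrenal gland and the spine.

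Levels below are log2 quantile-normalized intensities, so a difference of 1 is a 2-fold change, and a level of one gene cannot be set against that of another. Differences are medium minus small, with the standard error of the limma fit, and a gene was called where limma's adjusted p was under 0.05. Array medians before normalization ran from 557.79 to 1292.165 intensity units in set 1. Th, tyrosine hydroxylase, a marker of the sympathetic lineage from which the labelled neuroblastoma arises, lay at 17.37 to 18.02 in small and 16.63 to 17.30 in medium tumors (−0.72 ± 0.26, adjusted p = 0.223). Mycn, whose probe is not stated to read mouse or human transcripts, ran from 10.40 to 12.14 in small and from 8.20 to 11.96 in medium tumors (−1.24 ± 0.54, adjusted p = 0.382).

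Single tumors stood apart in genes of another tissue. Small replicate 3 had muscle genes near the level of medium tumors, medium replicate 5 had them near the level of small tumors, and small replicate 5 had low fat genes. Small replicates 3 and 6 also have a second array each in set 2 of the series. The labels do not say whether the same RNA or other sections were used for it. On the first arrays, 17 named muscle genes were higher in small replicate 6 than in small replicate 3 by a median of 3.53, while on the second arrays the median difference was 0.05. Myl1, a myosin light chain, was at percentile 72.1 of its array on the first array of small replicate 3 and at percentile 97.9 on the second; for small replicate 6 it was at 98.7 and 98.1. The muscle signal of 1 tumor thus differed between its arrays, and the reason was not tested.

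The change from small to medium was mostly a fall. Of 32996 probes, 317 were called (0.961%), 105 higher (0.318%) and 212 lower (0.643%). Falls of at least 2-fold numbered 164 and rises of that size 58. Of 7804 genes with a name, 170 were called (2.18%), 28 higher (0.359%) and 142 lower (1.82%). Names came from the authors' table of set 2, which holds no medium tumor, and 134 of the 317 called probes had no single name. The shares among named genes may therefore differ from those among all probes. Whether the naming lowered the share of rises was not tested. All 6 medium tumors lay below all 6 small ones for 136 named genes (1.74%) and above them for 41 (0.525%). The median change was 0.03 over all probes and 0.01 over named genes.

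The split between rises and falls depended on the scaling: without normalization 3 probes were higher and 111 lower. Dividing each array by its median gave 73 higher and 206 lower. The count was 174 without medium replicate 2, 169 without medium replicate 3, 166 without medium replicate 6 and 137 without small replicate 4. Higher calls numbered 182 without medium replicate 1. With the levels of muscle and fat genes as covariates limma called 0 probes, with 1955 at an unadjusted p under 0.05. Both levels were mostly higher in small tumors, so this fit can hardly tell them from size class. With life span as a covariate it called 174, of which 15 were higher.

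The largest falls belonged to fast skeletal muscle. A list member counts as measured where it had a named probe, and other members may be among the unnamed probes. Of 27 measured muscle genes all 27 had a negative difference, with a median of −2.28. Of these 9 were called lower, beside 1.82% of all named genes, and none higher. Of the 9 thick and thin filament genes 3 were called, and their median was −5.09. In bulk tissue, fewer cells of a type and less RNA per cell cannot be told apart.

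Myl1, a light chain of fast myosin, measured 18.98, 16.38, 12.31, 19.16, 16.90 and 18.45 in small replicates 1 to 6. In medium replicates 1 to 6 it measured 8.74, 10.96, 8.91, 8.93, 15.98 and 7.80. The groups overlapped in that medium replicate 5 lay above small replicate 3, and the difference was −6.81 ± 1.41 (adjusted p = 0.0133). A second Myl1 probe gave −4.82 (adjusted p = 0.0133).

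Its RefSeq promoter, GRCm38.p6 chr1:66945007-66945306 on the minus strand, from 250 bases before the start to 50 after it, is shown because TATAAA was frequent among the filament genes. Capitals mark TATAAA, here read on the opposite strand as TTTATA, from 95 bases before the start.
Myl1: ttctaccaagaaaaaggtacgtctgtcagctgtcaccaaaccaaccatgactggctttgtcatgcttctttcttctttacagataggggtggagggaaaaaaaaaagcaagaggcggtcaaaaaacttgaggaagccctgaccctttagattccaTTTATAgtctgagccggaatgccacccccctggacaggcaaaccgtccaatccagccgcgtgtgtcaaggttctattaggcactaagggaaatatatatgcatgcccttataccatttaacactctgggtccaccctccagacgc
The letters TATAAA, on either strand, stood in 5 of the 7 thick and thin filament genes that had a promoter in the table. Among all genes with a promoter they stood in 4234 of 27025 (13.6% of all 32851 promoters). Over the 4 muscle lists together they stood in 5 of 21 genes, so in filament genes alone. The match describes the sequence and shows no binding.

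Other muscle genes followed the same tumors. Casq1, the calcium store protein of fast fibers, ran from 10.65 over a median of 14.28 to 15.99 in small tumors and from 7.46 over 9.04 to 12.88 in medium ones (−4.67 ± 0.94, adjusted p = 0.0105). The troponins Tnni2 (−5.72 ± 1.43, adjusted p = 0.0473) and Tnnc2 (−5.35 ± 1.25, adjusted p = 0.0301) and the fast-fiber actinin Actn3 (−3.07 ± 0.73, adjusted p = 0.0339) were also called. Acta1, skeletal actin (−5.09 ± 1.30, adjusted p = 0.0524), and Ckm, muscle creatine kinase (−4.80 ± 1.22, adjusted p = 0.0514), missed the threshold. In Ckm 5 small tumors lay at 15.11 to 17.78 and small replicate 3 at 9.78, while 5 medium tumors lay at 8.84 to 10.46 and medium replicate 5 at 15.09.

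Among genes of muscle energy supply, Ckmt2, the mitochondrial creatine kinase of muscle (−2.88 ± 0.69, adjusted p = 0.035), Eno3, muscle enolase (−2.28 ± 0.47, adjusted p = 0.0129), and Fbp2, muscle fructose bisphosphatase (−1.45 ± 0.32, adjusted p = 0.0219), were lower.

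The calls of Myl1 and Casq1 held in all 12 fits with 1 small or medium tumor left out. That of Tnni2 held only without small replicate 3 or medium replicate 5 (adjusted p up to 0.142), and those of Tnnc2 and Actn3 only without these or small replicate 2 or 5 (up to 0.0976 and 0.118). Ckmt2 held only without medium replicate 5 or small replicate 2, 3 or 6 (up to 0.131). Fbp2 was lost without medium replicate 2, 4 or 6 or small replicate 4 or 6 (up to 0.0719), and Eno3 without small replicate 4 (0.0514). Acta1 and Ckm were called without small replicate 3 or medium replicate 5.

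**Figure D1:**
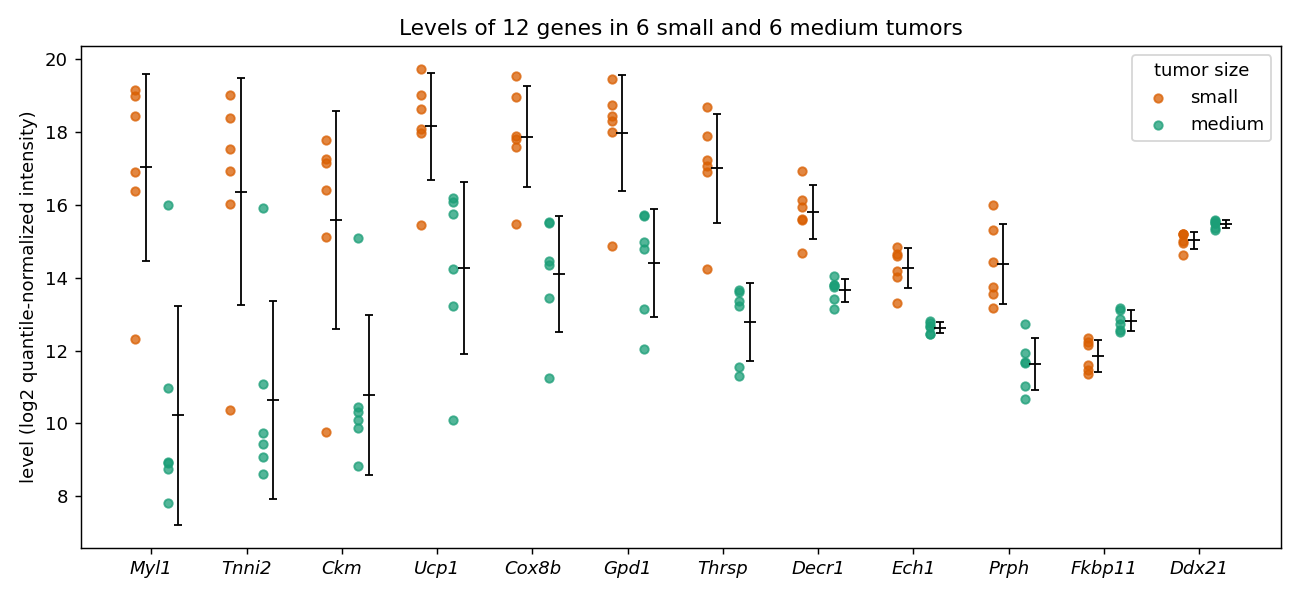
Log2 level (vertical axis) of 12 genes in 6 small (orange) and 6 medium (green) tumors, 1 point per tumor, with mean and SD as bars beside the points. Myl1, Tnni2 and Ckm have 1 small tumor among the medium ones and 1 medium tumor among the small ones, whereas the points of Ech1, Decr1 and Prph form separate groups.

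Of 10 measured heat-producing genes of brown fat 5 were called lower (50%, beside 1.82% of all named genes) and none higher. Of the 10, 8 had a negative and 2 a positive difference, up to 0.64, and the list median was −1.83. Ucp1, the uncoupling protein, measured 19.03, 18.08, 17.99, 18.64, 15.46 and 19.74 in small replicates 1 to 6 and 10.09, 13.21, 16.08, 15.75, 16.18 and 14.25 in medium replicates 1 to 6. Small replicate 5 lay within the range of medium tumors, and the difference was −3.89 ± 0.74 (adjusted p = 0.00669).

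Cox7a1 and Cox8b, forms of cytochrome oxidase subunits found in heart, skeletal muscle and brown fat, were lower as well. Cox7a1 ran from 13.64 over 15.72 to 17.69 in small tumors and from 10.76 over 12.58 to 13.52 in medium ones, without overlap (−3.36 ± 0.52, adjusted p = 0.00107). Cox8b differed by −3.79 ± 0.75 (adjusted p = 0.00922). Ppara, a nuclear receptor that switches on fatty acid oxidation, ran from 11.05 to 12.74 in small and from the floor at 7.39 to 9.76 in medium tumors. Its difference of −3.57 ± 0.50 (adjusted p = 0.000321) is a lower bound, since 1 medium tumor was at the floor. Pdk4, which blocks the entry of pyruvate into the citric acid cycle, differed by −2.83 ± 0.61 (adjusted p = 0.0164), and was lost without medium replicate 3 (0.0557).

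Fat storage and fatty acid synthesis genes were lower in the same tumors. Of 18 measured adipocyte genes 9 were called lower (50%, beside 1.82% of all named genes) and none higher. All 18 had a negative difference, and the list median was −1.48. Agpat2, an enzyme of triglyceride synthesis, ran from 11.13 over 13.35 to 14.97 in small and from 8.81 over 9.12 to 11.16 in medium tumors (−3.84 ± 0.51, adjusted p = 0.000321). Gpd1, which makes the glycerol backbone of fat, differed by −3.57 ± 0.61 (adjusted p = 0.00256). Pnpla2, which starts the breakdown of stored fat (−1.49 ± 0.24, adjusted p = 0.002), and Dgat2, which completes triglycerides (−1.24 ± 0.21, adjusted p = 0.00261), were lower. Fmo1, a flavin monooxygenase (−3.54 ± 0.68), and Car3, a carbonic anhydrase abundant in fat and muscle (−3.05 ± 0.60), were called too.

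Mgll, the lipase of monoglycerides (−1.17), and Pck1, a source of glycerol in fat (−1.46), were lost without small replicate 4 (adjusted p = 0.0534 and 0.0502), and Mrap, a partner of the ACTH receptor (−3.24), without medium replicate 2 (0.0532). Fabp4, the fatty acid carrier of adipocytes, differed by −1.87 ± 0.60 and missed the threshold (adjusted p = 0.148), but passed without small replicate 5. Of 7 fatty acid synthesis genes 4 were called lower (57.1%, beside 1.82% of all named genes). Thrsp, a regulator of lipid synthesis, ran from 14.25 over 17.14 to 18.68 in small and from 11.30 over 13.30 to 13.66 in medium tumors, without overlap (−4.22 ± 0.59, adjusted p = 0.000321). Fasn, fatty acid synthase, ran from 17.82 over 18.30 to 18.91 and from 17.38 over 17.59 to 17.89, where small replicate 5 lay below medium replicate 6 (−0.73 ± 0.14, adjusted p = 0.00669). Mlxipl, a glucose-responsive transcription factor (−2.39 ± 0.54), was lost without medium replicate 1 or 2 or small replicate 1 or 6 (adjusted p up to 0.0666). Me1, malic enzyme (−1.33 ± 0.34), held only without small replicate 3 (up to 0.122).

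Fatty acid oxidation was the list with the highest share of called genes among those with at least 5 measured members. The lists were chosen with earlier results of these data known, so this rank is only a description. Of its 17 measured genes 13 were called lower (76.5%, beside 1.82% of all named genes), none was called higher, and all 17 had a negative difference, with a median of −1.08. For 7 of the 17 all medium tumors lay below all small ones, beside 1.74% of all named genes. The called genes include fatty acid carriers, a carnitine transferase, dehydrogenases and thiolases of the cycle, enzymes for unsaturated fatty acids and the flavoprotein that passes electrons on.

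At uptake, Fabp3, the fatty acid carrier of heart and muscle, ran from 13.89 over 15.31 to 16.88 in small and from 12.66 over 12.90 to 14.35 in medium tumors (−2.30 ± 0.44, adjusted p = 0.00712). Medium replicate 5 was the medium tumor within the range of small ones. Cd36, a fatty acid transporter, differed by −1.95 ± 0.49 (adjusted p = 0.0476), a call that held only without medium replicate 5 or small replicate 5 (up to 0.149). Cpt2, which hands acyl groups from carnitine to coenzyme A inside the mitochondrion, differed by −0.93 ± 0.17 (adjusted p = 0.00493).

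In the cycle, the dehydrogenases of long chains were lower: Acadl by −2.02 ± 0.36 (adjusted p = 0.00366) and Acadvl by −1.08 ± 0.17 (adjusted p = 0.00107). Acadl ran from 14.80 to 16.81 in small and from 13.36 to 14.77 in medium tumors, without overlap. Hadhb, the thiolase subunit of the trifunctional protein (−0.95 ± 0.17, adjusted p = 0.00499), Hadh, the hydroxyacyl dehydrogenase (−0.86 ± 0.17, adjusted p = 0.0105), and Acaa2, a mitochondrial thiolase (−1.35 ± 0.19, adjusted p = 0.000403), followed. A second Hadhb probe gave −0.79 (adjusted p = 0.0804).

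The enzymes for unsaturated fatty acids included the oxidation gene with the smallest p, Ech1, a dienoyl-CoA isomerase. Ech1 measured 14.64, 14.17, 14.03, 14.59, 13.31 and 14.84 in small replicates 1 to 6 and 12.45, 12.44, 12.67, 12.74, 12.82 and 12.64 in medium replicates 1 to 6. The groups did not overlap, small replicate 5 was the lowest small tumor, and the difference was −1.64 ± 0.20 (adjusted p = 0.000169). Decr1, the dienoyl-CoA reductase, ran from 14.67 over 15.78 to 16.92 and from 13.15 over 13.77 to 14.04 (−2.15 ± 0.31, adjusted p = 0.000403). Eci1, an enoyl-CoA isomerase, differed by −1.37 ± 0.21 (adjusted p = 0.000879). Small and medium tumors did not overlap in either gene.

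The Ech1 promoter, GRCm38.p6 chr7:28825088-28825387 on the plus strand, is printed to set an oxidation gene beside the muscle filament gene above. Capitals mark the 19 CG dinucleotides.
Ech1: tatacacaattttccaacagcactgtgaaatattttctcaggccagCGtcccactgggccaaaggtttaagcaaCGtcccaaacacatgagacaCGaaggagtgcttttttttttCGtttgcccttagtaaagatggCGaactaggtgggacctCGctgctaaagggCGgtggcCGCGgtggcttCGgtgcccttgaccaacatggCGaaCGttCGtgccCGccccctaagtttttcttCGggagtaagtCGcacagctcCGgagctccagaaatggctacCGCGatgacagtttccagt
The 15 oxidation genes with a promoter in the RefSeq table had a median of 17 CG dinucleotides in 300 bases, and 0 of the 15 held TATAAA. The promoters of thick and thin filament genes had a median of 6.5 CG dinucleotides and all promoters a median of 7. Other lists were like the oxidation genes, with medians of 15 for brown fat and for adipocyte genes and 17 for amino acid supply. The medians of tRNA synthetase and ribosome production genes were both 19. No adipocyte or synthetase gene with a promoter held TATAAA either.

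Electron transfer flavoprotein, which passes electrons from the acyl-CoA dehydrogenases to ubiquinone, was lower in both subunits. Etfb differed by −0.69 ± 0.15 (adjusted p = 0.0199) and was lost without medium replicate 6 or small replicate 4 or 6 (up to 0.0719). Etfa differed by −0.53 ± 0.13 (adjusted p = 0.0442) and was lost in 8 of 12 fits with 1 tumor left out (without medium replicate 1, 2, 3 or 6 or small replicate 1, 3, 4 or 6, up to 0.145). The 4 members not called were Acads (−0.46 ± 0.12, adjusted p = 0.0518), the carnitine carrier Slc25a20 (−0.83 ± 0.22, 0.0631), the trifunctional subunit Hadha (−0.54 ± 0.18, 0.165) and the peroxisomal enzyme Ehhadh (−1.83 ± 0.72, 0.297). The other 10 called members held in all 12 fits with 1 tumor left out, and the list count stayed between 10 and 14. Without normalization 3 were called, with a list median of −1.14.

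Of 60 measured genes of the respiratory chain list limma called 0, with a median difference of −0.15. Their range was −0.37 to 0.42, and 48 were below 0. The list leaves out the cytochrome oxidase subunits Cox7a1 (−3.36) and Cox8b (−3.79), which were called lower and are described above with brown fat. The gene of the list with the smallest p was Uqcrc2, a core subunit of complex III (−0.34 ± 0.10, adjusted p = 0.086). Of 17 citric acid cycle genes 2 were called lower (11.8%, beside 1.82% of all named genes). Ogdh, a subunit of oxoglutarate dehydrogenase, ran from 16.58 over 16.94 to 17.48 and from 15.99 over 16.24 to 16.54, without overlap (−0.70 ± 0.14, adjusted p = 0.0122), but was lost with arrays divided by their medians (0.136). Pdk2, an inhibitor of pyruvate dehydrogenase (−2.14 ± 0.49, adjusted p = 0.0298), was lost without medium replicate 2 or 4 or small replicate 1, 4 or 6 (up to 0.0955). Coq8a, which takes part in ubiquinone synthesis, ran from 14.50 over 15.51 to 16.96 and from 12.20 over 12.79 to 14.15, without overlap (−2.85 ± 0.39, adjusted p = 0.000321).

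**Figure D2:**
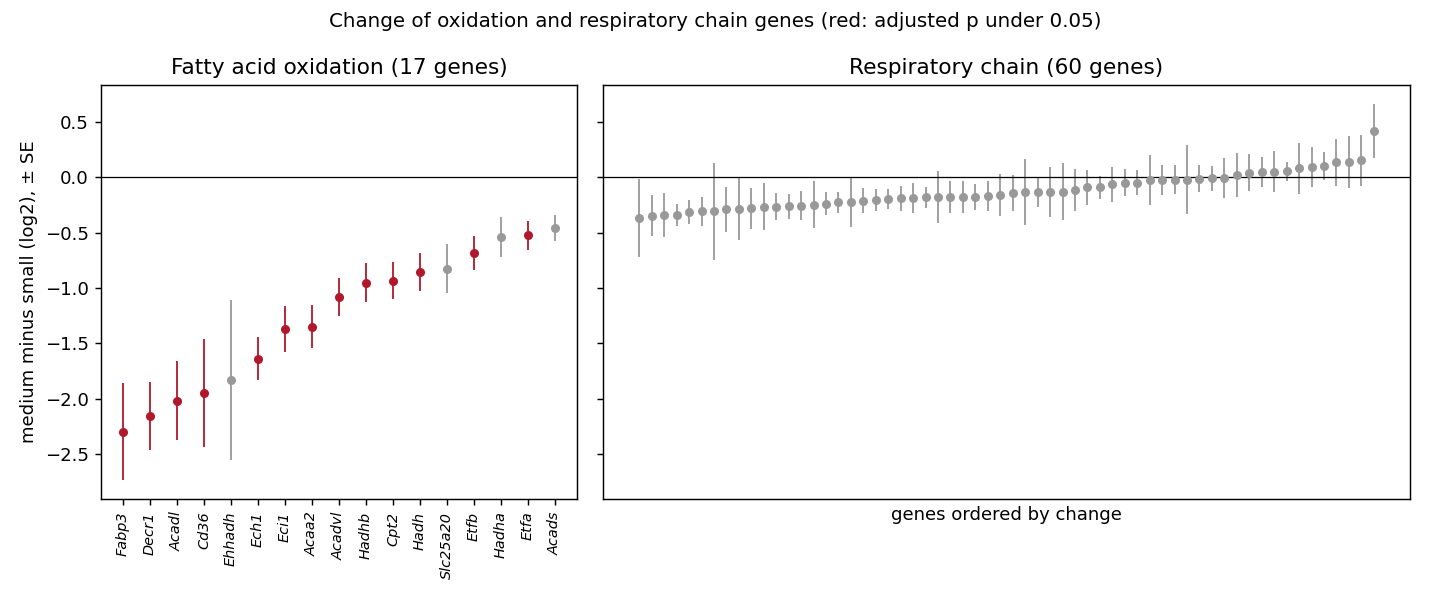
Difference medium minus small (log2, with standard error) of 17 fatty acid oxidation genes (left) and 60 respiratory chain genes (right), red where limma's adjusted p was under 0.05. The oxidation genes run from −2.30 to −0.46 and 13 are red, while the respiratory chain genes run from −0.37 to 0.42 and none is red. Cox7a1 and Cox8b, which were called lower, are not among the 60.

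Pairs of paralogs were compared within each array, where a common scale cancels. The pair list set the muscle or fat form of a protein against another gene of its family. For 8 of 27 listed pairs both genes had a named probe. Over 924 permutations of 6 against 6 tumors the smallest 2-sided p is 0.00216. The log2 ratio of Cox7a1 to Cox7a2l differed by −3.27 (exact permutation p = 0.00433, adjusted over 8 pairs 0.0173). That of Cox8b to Cox8a differed by −3.78 (exact permutation p = 0.00433, adjusted 0.0173), with Cox8a itself at −0.01 (95% interval −0.37 to 0.35). Fabp3 over Fabp5 differed by −2.08 (exact permutation p = 0.00649, adjusted 0.0173), and Ckm over the brain form Ckb by −4.68 (exact permutation p = 0.0238, adjusted 0.0476).

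The remaining 4 pairs did not pass. Pgam2 over Pgam1 differed by −2.68 (exact permutation p = 0.0498, adjusted 0.0797) and Fabp4 over Fabp5 by −1.65 (exact permutation p = 0.0649, adjusted 0.0866). Eno3 over Eno2 differed by −1.12 (exact permutation p = 0.16, adjusted 0.183) and Fbp2 over Fbp1 by −0.75 (exact permutation p = 0.203, adjusted 0.203). A ratio shows unequal change of the forms and not that the second form stayed level. With 1 tumor left out, 3 to 5 pairs passed.

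**Figure D3:**
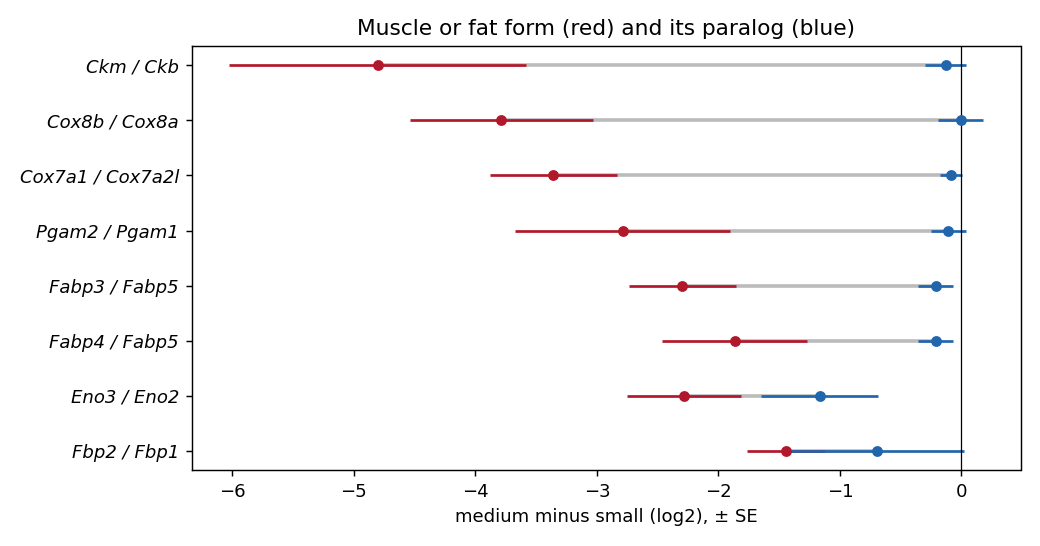
Difference medium minus small (log2, with standard error) of the muscle or fat form (red) and of its paralog (blue) for 8 pairs joined by grey lines. For Ckm, Cox8b, Cox7a1, Pgam2, Fabp3 and Fabp4 the blue point lies between −0.21 and −0.01, and for Eno3 and Fbp2 the blue point lies at −1.17 and −0.70.

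Muscle genes and fat genes set different small tumors apart. The mean level of the 27 muscle genes was 15.16, 13.03, 11.06, 15.20, 13.80 and 14.06 in small replicates 1 to 6, and 10.44, 10.96, 10.64, 10.50, 13.23 and 10.69 in medium replicates 1 to 6. That of 28 brown fat and adipocyte genes was 14.53, 14.24, 14.38, 14.50, 12.77 and 15.20 in small and 11.55, 11.87, 12.31, 12.83, 13.18 and 12.64 in medium tumors. Small replicate 3 was thus low in muscle genes and not in fat genes, while small replicate 5 was low in fat genes and not in muscle genes.

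The mean of the 17 oxidation genes was 15.20, 14.87, 14.79, 15.45, 14.31 and 15.67 in small and 13.56, 13.50, 13.78, 13.87, 14.24 and 13.74 in medium tumors. No medium tumor reached the lowest small one. Fat and oxidation genes shared their lowest small tumor (replicate 5), their highest small tumor (replicate 6) and their highest medium tumor (replicate 5), which was also the highest medium tumor in muscle genes. The oxidation list had a median of −0.79 with the muscle level as a covariate, −0.32 with the fat level and −0.25 with both, and 0 of its genes were called in these fits. The fat covariate, a mean of standardized levels, ran from −0.035 (replicate 5) to 1.705 in small tumors. In medium tumors it ran from −0.715 to 0.234. It thus largely follows size class, and these fits can hardly tell fat level and size class apart. Over all probes limma called 0 with the muscle level as covariate (2179 at an unadjusted p under 0.05) and 3 with the fat level.

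**Figure D4:**
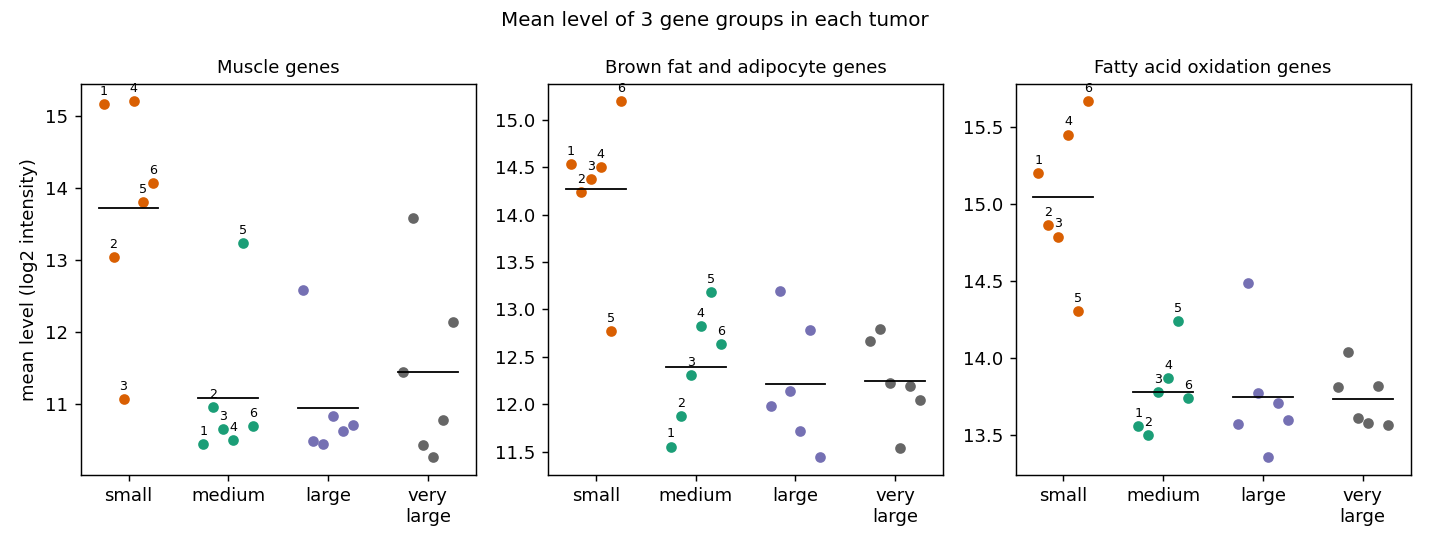
Mean log2 level (vertical axes) of 27 muscle, 28 brown fat and adipocyte and 17 fatty acid oxidation genes in each set 1 tumor, by size class, with replicate numbers for small and medium tumors and black lines for group means. In the left panel small replicate 3 lies at 11.06 and medium replicate 5 at 13.23, and in the right panel every medium tumor lies below every small one.

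Of the genes of mature peripheral neurons, few were called. Prph, peripherin, the intermediate filament of peripheral neurons, measured 15.99, 13.75, 13.17, 14.44, 15.31 and 13.56 in small replicates 1 to 6. In medium replicates 1 to 6 it measured 10.68, 12.73, 11.04, 11.93, 11.65 and 11.68. The groups did not overlap (−2.75 ± 0.44, adjusted p = 0.00132), and small replicates 3 and 5, low in muscle or fat genes, were the lowest and the second highest small tumors. Prph was 1 of 31 measured cytoskeleton and axon genes called (3.23%, near the 1.82% of all named genes), and the list median was −0.22. Gap43, a growth cone protein of the same list, differed by −0.67 ± 0.21 (adjusted p = 0.128).

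Sncg, gamma-synuclein, a protein of peripheral neurons that fat cells also make, ran from 10.61 over 11.73 to 13.05 and from 8.28 over 9.63 to 10.21, without overlap (−2.39 ± 0.44, adjusted p = 0.00571). It was the 1 gene called among 20 synapse genes (5%, beside 1.82% of all named genes called lower). Catecholamine genes leaned the same way, with 16 of 17 below 0, a median of −0.56 and 2 called (11.8%). Maob, which breaks down monoamines, ran from 14.33 over 14.77 to 15.44 and from 12.99 over 13.79 to 14.16, without overlap (−1.16 ± 0.22, adjusted p = 0.00577). Dbh, which makes noradrenaline, ran from 13.55 over 13.68 to 14.68 and from 12.19 over 12.60 to 13.38, without overlap (−1.20 ± 0.25, adjusted p = 0.0151), and was lost without medium replicate 2 or small replicate 4 (up to 0.0561). Maoa missed the threshold (−0.51 ± 0.14, adjusted p = 0.0761), as did the neuropeptide Npy (−2.10 ± 0.55, 0.0549), although its groups did not overlap.

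Among 26 sympathoadrenal regulators 1 was called lower (3.85%, near the 1.82% of all named genes). It was the neurotrophin receptor Ntrk2 (−1.10 ± 0.28, adjusted p = 0.049), which held only without medium replicate 1 or 5 or small replicate 1 (up to 0.144). With muscle and fat levels as covariates the differences of Prph, Sncg, Maob and Dbh were −2.21, −2.66, −1.28 and −1.72, with adjusted p of 0.556, 0.489, 0.489 and 0.335. These levels largely follow size class, which limits the calls that such a fit can make. With life span as a covariate Prph (−2.69, adjusted p = 0.0075) and Maob (−1.03, 0.0418) passed, while Sncg (−1.98, 0.0537) and Dbh (−0.84, 0.147) did not.

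Few named genes rose, beside 105 probes called higher with or without a name. Of 28 called higher, 7 had all medium tumors above all small ones: Fkbp11, Iars, Bhlha15, Nxt1, Ddx21, BC016608 and BC004022. Fkbp11, a prolyl isomerase of the endoplasmic reticulum found in secretory cells, measured 12.23, 11.60, 12.14, 11.34, 11.45 and 12.33 in small replicates 1 to 6. In medium replicates 1 to 6 it measured 12.50, 13.12, 12.56, 12.73, 12.87 and 13.17. The difference was 0.98 ± 0.20 (adjusted p = 0.0105). Fkbp11 was the 1 gene called among 42 of protein folding (2.38%, beside 0.359% of all named genes called higher). Dividing arrays by their medians ended the call (adjusted p = 0.0544). Of the 11 risers described here none passed without normalization (adjusted p = 0.192 to 1), and with life span as a covariate Car12 passed (0.0378) and the other 10 did not (0.062 to 0.18).

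Ribosome production is a known program of MYC proteins. Of 36 measured genes 3 were called higher (8.33%, beside 0.359% of all named genes) and none lower, and with 1 tumor left out the count ran from 0 (without small replicate 4) to 3, with 1 without medium replicate 6. In all, 35 had a positive difference, and the median was 0.27 (0.22 without normalization, 0.30 with arrays divided by their medians). Noc2l, a nucleolar protein, ran from 11.77 over 12.52 to 13.48 and from 12.92 over 13.97 to 14.37 (1.29 ± 0.27, adjusted p = 0.014), and was lost without small replicate 4 (0.0538). Ddx21, an RNA helicase of the nucleolus, ran from 14.62 to 15.21 and from 15.32 to 15.59 (0.44 ± 0.10, adjusted p = 0.0199), and was lost without medium replicate 6 or small replicate 4 (up to 0.0723). Rrp12, a ribosome export factor (0.63 ± 0.14, adjusted p = 0.0251), was lost without medium replicate 2, 3 or 6 or small replicate 4 or 5 (up to 0.09). Nxt1, an RNA export factor (0.50 ± 0.12, adjusted p = 0.0301), was the 1 gene called among 31 of nuclear transport (3.23%). Its call was lost without medium replicate 2, 3 or 6 or small replicate 3, 4 or 5 (up to 0.0995).

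Amino acid supply and tRNA charging, which the transcription factor ATF4 is known to induce, gave few calls. Atf4 itself ran from 16.31 over 16.41 to 16.62 in small and from 16.30 over 17.11 to 17.45 in medium tumors (0.58 ± 0.14, adjusted p = 0.0424), a call that held only without medium replicate 1 or small replicate 1 or 2 (up to 0.132). Iars, isoleucyl-tRNA synthetase (0.55 ± 0.13, adjusted p = 0.0283), was the 1 gene called among 9 synthetases (11.1%, beside 0.359% of all named genes called higher). Its call was lost without medium replicate 2, 3 or 6 or small replicate 4, 5 or 6 (up to 0.0955). Of 19 amino acid supply genes limma called 0, although 17 had a positive difference and the median was 0.38. Shmt2, which makes glycine in mitochondria, missed the threshold (0.84 ± 0.22, adjusted p = 0.0549).

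The Iars promoter, GRCm38.p6 chr13:49681880-49682179 on the plus strand, is shown for the ATF4 composite element TGATGNAA, in capitals and read here on the opposite strand.
Iars: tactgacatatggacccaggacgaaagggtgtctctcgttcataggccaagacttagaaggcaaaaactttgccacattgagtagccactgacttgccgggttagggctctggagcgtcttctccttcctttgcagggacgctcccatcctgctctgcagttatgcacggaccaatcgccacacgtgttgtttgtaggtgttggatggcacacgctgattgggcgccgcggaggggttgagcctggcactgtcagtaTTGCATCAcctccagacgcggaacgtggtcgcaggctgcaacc
The letters TGATGNAA, on either strand, stood in 5 of the 7 synthetase genes with a promoter in the table and in 3 of the 14 such amino acid supply genes. Among all genes with a promoter they stood in 1219 of 27025 (3.97% of all promoters).

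Bhlha15, a transcription factor of secretory cells (0.54 ± 0.13, adjusted p = 0.0439), held only without medium replicate 1 or 5 (up to 0.111). BC016608 (1.49 ± 0.34, adjusted p = 0.0267) was lost without medium replicate 2, 3 or 6 or small replicate 4, 5 or 6 (up to 0.085). BC004022 (0.38 ± 0.08, adjusted p = 0.0231) was lost without medium replicate 3 or 6 or small replicate 4 (up to 0.0818). Car12, a carbonic anhydrase of the cell surface that hypoxia is known to induce, ran from 14.92 over 15.28 to 15.66 and from 15.46 over 16.03 to 16.20 (0.72 ± 0.13, adjusted p = 0.00571), and held in all 12 fits with 1 tumor left out. Vegfa, another hypoxia target, differed by 0.31 ± 0.24 (adjusted p = 0.741). Of 24 measured hypoxia and glycolysis genes Car12 was the 1 called higher (4.17%, beside 0.359% of all named genes). Ldhb, a lactate dehydrogenase, was the 1 called lower (4.17%, beside 1.82% of all named genes). In this list 14 were below 0, the range was −2.42 to 0.72 and the median −0.11.

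Cell division genes gave no call. Of 42 kinetochore and mitosis genes and 33 DNA replication genes limma called 0, with median differences of 0.14 and 0.16, beside 0.03 over all probes. Positive differences numbered 35 of the 42 and 30 of the 33. Cenpe, the kinetochore kinesin named in the title of the series, ran from 13.53 over 13.80 to 14.01 and from 13.54 over 14.18 to 14.39 (0.30 ± 0.15, adjusted p = 0.462). The cell cycle inhibitor Cdkn1a differed by −0.65 ± 0.54 (adjusted p = 0.77).

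**Figure D5:**
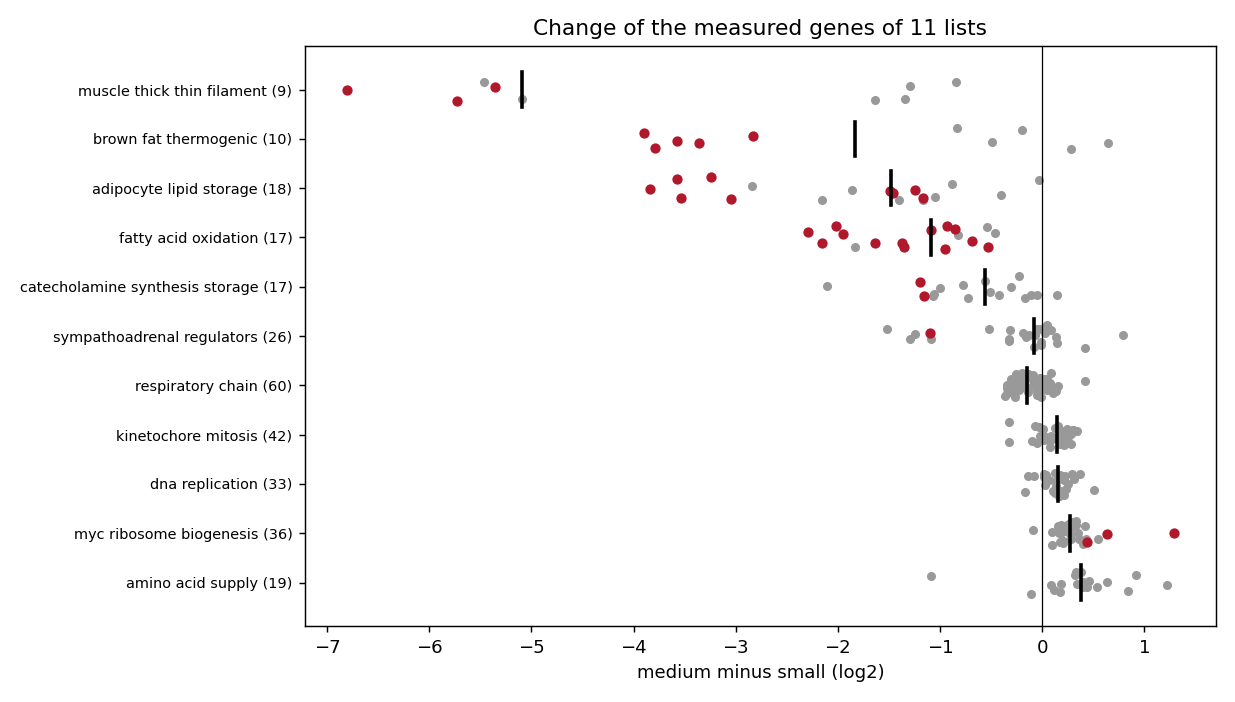
Difference medium minus small (log2) of each measured gene of 11 lists, with the number of genes in brackets, red where limma's adjusted p was under 0.05 and with a black bar at the list median. Medians run from −5.09 for thick and thin filament genes to 0.38 for amino acid supply, and red points lie left of 0 in the muscle, fat, oxidation, catecholamine and sympathoadrenal lists and right of 0 in the ribosome list.

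Supporting cells showed scattered changes. Of 31 fibroblast and matrix genes 3 were called lower (9.68%, beside 1.82% of all named genes), with a median of −0.42. Gsn, gelsolin, which cuts actin filaments, ran from 16.18 over 16.65 to 17.27 and from 13.81 over 14.88 to 15.58, without overlap (−1.91 ± 0.27, adjusted p = 0.000321). Timp2, a protease inhibitor (−0.94 ± 0.22, adjusted p = 0.0276), was lost without medium replicate 3, 5 or 6 or small replicate 4, 5 or 6 (up to 0.0927). Igfbp6, a binder of insulin-like growth factor (−1.46 ± 0.34, adjusted p = 0.0328), held only without medium replicate 2 or 5 or small replicate 1 or 5 (up to 0.0965). The matrix protein Dcn missed the threshold (−2.16 ± 0.55, adjusted p = 0.0521).

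The mean level of 13 Schwann cell and satellite glia genes ran from 12.61 to 13.34 in small and from 10.68 to 12.21 in medium tumors. The list median was −1.08, and 1 gene was called lower (7.69%, beside 1.82% of all named genes). That gene was Cryab, a chaperone also abundant in muscle (−1.71 ± 0.41, adjusted p = 0.035), which was lost without medium replicate 1, 2, 3, 4 or 6 or small replicate 1 or 4 (up to 0.118). Endothelial (19 measured) and myeloid genes (18) had no call, with medians of 0.10 and −0.04.

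Further genes were called lower, among them Ldhb of the hypoxia and glycolysis list. Pygl, liver glycogen phosphorylase (−2.36 ± 0.33, adjusted p = 0.000329), Aox1, aldehyde oxidase (−2.38 ± 0.44, adjusted p = 0.00544), Tm4sf4, a membrane protein (−2.52 ± 0.43, adjusted p = 0.00223), and Wfdc1, a secreted protein (−2.27 ± 0.44, adjusted p = 0.00833), had groups without overlap and held in all 12 fits with 1 tumor left out. So did Aqp1, a water channel (−1.27 ± 0.25, adjusted p = 0.0102). Ifi27, an interferon-induced gene (−1.23 ± 0.22, adjusted p = 0.00512), held in the 12 fits with overlapping groups. Gstk1, a mitochondrial glutathione transferase (−2.32 ± 0.52, adjusted p = 0.0228), was lost without medium replicate 3 or 6 or small replicate 4 or 6 (up to 0.0579), and Ldhb (−1.40 ± 0.34, adjusted p = 0.0369), without medium replicate 2, 3, 4 or 6 or small replicate 1, 4 or 6 (up to 0.121). Small replicate 5, low in fat genes, was the lowest small tumor for Ifi27, Pygl and Aox1 and the highest for Tm4sf4. With the fat level as a covariate Ifi27 was at −0.29, Ldhb at −0.34, Aqp1 at −0.81 and Pygl at −1.16. In that fit Gstk1 was at −1.35, Aox1 at −1.69, Wfdc1 at −2.43 and Tm4sf4 at −2.69, and none of these genes was called.

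The next step of growth gave no call. From medium to large tumors (0.76 to 1.3 g, n = 6) limma called 0 of 32996 probes (0%), with 1113 at an unadjusted p under 0.05, and 1 probe without large replicate 1. The test of the difference between the steps also called 0 probes (0%), with 1621 at an unadjusted p under 0.05, and 12 without small replicate 5. The first step is therefore not shown to differ from the next at any single probe with all tumors.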

How the data were processed

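Single-colour array intensities of 33012 probes were deposited by the authors without normalization between arrays. The scanner software and the background correction are not named in those sources. Arrays of set 1 (24) were quantile normalized together with limma 3.58.1 in R 4.3.3 over the 32996 probes with a value on every array. Values under the 1st percentile (168.105) were raised to it, and log2 was taken. limma (lmFit and eBayes with an intensity trend) was fitted with the 4 size classes, 2-sided, with Benjamini-Hochberg adjustment over all probes.

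Symbols came from the authors' set 2 table (12688 probes, of which 8354 had 1 symbol), updated through RefSeq GRCm38.p6; 7804 genes were named, each by its brightest probe. Other probes are unnamed here, and some genes chosen by the rule are not reported here. Genes in the text are the extremes without overlap, list members by smallest p or past the threshold, the pairs and a few key genes; Acads, Slc25a20, Hadha and Ehhadh complete the oxidation list. Members, lists and the naming rule were chosen with earlier results of these data known. Alternatives covered normalization, floor, dim probes, variance trend, arrays in the fit, life span, tissue levels (the fat covariate holds 35 brown fat, fatty acid synthesis and adipocyte genes) and single tumors. Promoter sequences are RefSeq's. Python 3.11.15, scipy 1.17.1, pandas 2.3.3 and matplotlib 3.10.9 were used. The number of arrays limits the precision.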

Additional observations from a re-analysis of the deposited data

Results flagged for a closer look

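Samples far from the rest of their group were sought among 96 genes in 2 groups of 6 by Dixon's ratio of the gap to the nearest tumor over the whole range, and 25 of 192 groups held one. Chance gives about 1 in 20 groups, and genes that share a tissue are not independent.

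Small replicate 3 was the lowest small tumor in 5 of them. Among muscle genes it lay at 13.74 for Acta1 (next tumor 18.66), 9.78 for Ckm (15.11), 11.72 for Tnnc2 (16.61) and 10.36 for Tnni2 (16.01). For Bhlha15, a gene of secretory cells, it lay at 12.52 (12.72).

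Medium replicate 5 was the highest medium tumor in 8. Among muscle genes it lay at 18.98 for Acta1 (next tumor 13.36), 12.88 for Casq1 (9.28), 15.09 for Ckm (10.46), 14.63 for Ckmt2 (11.79), 14.81 for Eno3 (13.57) and 15.92 for Tnni2 (11.09). It also lay highest for the fatty acid carrier Fabp3 at 14.35 (12.93) and the lipid enzyme Agpat2 at 11.16 (9.56).

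Small replicate 5 was lowest in 4 genes, at 15.44 for Fabp4 (next tumor 18.41), 14.88 for Gpd1 (18.00), 15.46 for Pck1 (17.22) and 14.94 for Ifi27 (16.34). Medium replicate 1 was lowest in 4, at 15.46 for Car12 (15.95), 8.93 for Gstk1 (10.22), 8.53 for Mlxipl (10.18) and 14.69 for Rrp12 (15.18). Medium replicate 3 was lowest for Cdkn1a at 11.42 (12.28) and Dcn at 12.33 (15.20), and highest for Iars at 17.32 (16.92) and Nxt1 at 14.45 (14.01).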

How the results depend on the processing

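No paired analysis was possible because the labels give no replicate number shared between small and medium tumors. Beside 317 called probes (105 higher, 212 lower), limma called 114 without normalization (3 and 111), 173 without the intensity trend (50 and 123), 174 with life span as a covariate (15 higher), 3 with the fat level (1 and 2), and 0 with the muscle level or both tissue levels (0 higher and 0 lower). Quantile normalization of the 12 arrays alone, or a fit of the 12 arrays alone, gave 53 higher. With 1 tumor left out the count ran from 137 to 403, with 33 to 182 higher and 104 to 245 lower. From medium to large tumors it ran from 0 to 1, and between the steps from 0 to 12. The fits with a single tissue level were chosen after seeing the data. With both tissue levels as covariates 10 of 70 called genes changed sign, none past the threshold: Acadl 0.12, Actn3 0.38, Car3 0.38, Cd36 0.73, Cox8b 0.39, Mlxipl 0.34, Ogdh 0.015, Pck1 0.15, Pdk4 0.81 and Tnni2 0.069. With the fat level alone Car3 was at 0.22, Cd36 at 0.46, Cox8b at 0.073, Mlxipl at 0.16, Pck1 at 0.26 and Pdk4 at 0.36. As the covariates are built from muscle and fat genes, they take up the change of those genes by construction. They also largely follow size class, which limits the calls, and for other genes the cause was not tested. All 70 kept their calls without the floor and without dim probes, 58 with arrays divided by their medians, 47 with the life span covariate, 43 without the trend and 33 without normalization. With 6 tumors a group, and 1 probe for most genes, small changes can be missed.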

Other observations

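Small replicates 3 and 6 have second arrays in set 2, from RNA that the labels do not state to be the same. The median percentile of 27 muscle genes within an array was 62.05 on the first array of small replicate 3 and 83.29 on its second array. For small replicate 6 it was 82.9 and 84.8. On the 5 small arrays of set 1 other than that of replicate 3 it ran from 77.47 to 89.21, and on medium arrays from 50.68 to 76.68. The median percentile of 28 brown fat and adipocyte genes was 81.35 and 83.11 for small replicate 3 and 88.33 and 83.66 for small replicate 6. In set 2 the day 7 and day 14 ganglia lay at 80.82 to 83.06 for these fat genes and at 63.83 to 70.66 for the muscle genes, and the day 0 ganglia at 71.62 to 77.84 and 65.6 to 72.59. Over 32996 probes the pair of second arrays had a Pearson's r of 0.963 on log2 intensities, beside 0.962 for the first arrays of the same tumors; across sets r was 0.881 to 0.890, and probes are not independent replicates.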
